A study of Mus musculus with 8 samples.

Results

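The genes described here encode enzymes that break down nucleotides and adenosine, and receptors that sense these molecules outside the cell. They are 10 of the 15465 genes in the deposited table, chosen by symbol: Entpd1, Nt5e, Ada, Adora2a, Adora2b, P2rx4, P2rx7, P2ry6, P2ry12 and P2ry14, each of which had 1 row. RNA was sequenced from wild-type C57/BL6 mouse dendritic cells, with 4 samples given a control siRNA (si-nc) and 4 given an siRNA against Suclg2, a subunit gene of the mitochondrial succinyl-CoA ligase (si-Suclg2). All 8 samples shared the same history: bone marrow grown for 6 days in GM-CSF and IL-4, exposed to LPS for 24 hours, selected on CD11c beads and then cultured on spleen stroma for 9 days, a route to regulatory dendritic cells. The labels give no age of the mice, no time from transfection to harvest and no siRNA sequence, and they do not say whether the replicates were separate cultures, so that p-values measure only the spread between these samples, which may be technical.

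Cells release ATP when they are stressed or activated, and extracellular ATP acts as a danger signal on P2X ion channels and P2Y receptors. The ectoenzyme CD39 (Entpd1) removes phosphates from ATP and ADP to give AMP, CD73 (Nt5e) turns AMP into adenosine, and adenosine deaminase (Ada) turns adenosine into inosine. Adenosine in turn signals through receptors, of which those encoded by Adora2a and Adora2b raise cyclic AMP and restrain antigen-presenting cells. The CD39 and CD73 pair is a known feature of regulatory leukocytes.

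Values are FPKM (fragment counts scaled by transcript length and by library size). That unit was inferred, since the header does not name it, and depth per sample is unknown. Changes are si-Suclg2 minus si-nc on the log2(FPKM + 1) scale, which understates changes of low genes. A change counted as passing when its limma p, adjusted by the Benjamini-Hochberg method over the 10176 genes with a mean of at least 1 FPKM in either group, was under 0.05. Summed FPKM ran from 506241 to 539290 per sample. The siRNA target Suclg2 was at 4.43 to 4.69 FPKM with si-nc and 2.23 to 2.76 FPKM with si-Suclg2 (log2 change -0.69 ± 0.066 SE, limma adjusted p = 8.84e-05; two-sided exact permutation p = 0.0286 over 70 assignments, the smallest possible). Samples numbered 1 and 2 resembled each other, as did 3 and 4, in both groups, and changes within each of these pairs of numbers are given beside the members that passed. Of 10 conventional dendritic cell markers, 7 had a row; Zbtb46, Flt3 and Clec9a stayed under 1 FPKM in every sample, and Itgax, which encodes CD11c, was at 20.2 ± 2.84 and 12.6 ± 0.958 FPKM (SD, n = 4 each). All 12 macrophage and monocyte markers were tested, and they moved in both directions. The T cell, B cell and NK cell markers with a row were under 1 FPKM in every sample.

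Entpd1 was the member that fell, to 47.3% of its control level, while Nt5e was barely detected in either group and Ada was low. Entpd1 (gene ID 12495; GRCm38 chromosome 19, 40612366 to 40741602, plus strand, protein-coding) has an annotated start at that position and another further along the gene. The 250 bases before each are shown because this gene carried the largest change among the members. The same stretch of P2rx4 follows as a comparison. P2rx4 did not pass the test, and it was the only other member found to hold the letters marked below. Capitals mark CGTCA or its complement TGACG, the half-site of the cyclic AMP response element (CRE), the element through which cyclic AMP reaches transcription.
Entpd1 start 1 (GRCm38.p6 chr19:40612116-40612365, plus strand): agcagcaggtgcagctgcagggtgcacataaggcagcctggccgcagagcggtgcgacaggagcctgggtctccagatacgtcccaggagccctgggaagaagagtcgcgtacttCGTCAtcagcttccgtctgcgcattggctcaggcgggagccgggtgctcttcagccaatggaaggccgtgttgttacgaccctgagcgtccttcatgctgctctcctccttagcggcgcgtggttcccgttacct
Entpd1 start 2 (GRCm38.p6 chr19:40659520-40659769, plus strand): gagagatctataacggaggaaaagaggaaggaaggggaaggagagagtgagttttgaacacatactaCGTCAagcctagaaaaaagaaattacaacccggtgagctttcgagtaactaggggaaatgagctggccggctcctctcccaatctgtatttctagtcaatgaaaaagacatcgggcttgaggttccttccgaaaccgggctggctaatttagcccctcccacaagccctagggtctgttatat
P2rx4 (GRCm38.p6 chr5:122707294-122707543, plus strand): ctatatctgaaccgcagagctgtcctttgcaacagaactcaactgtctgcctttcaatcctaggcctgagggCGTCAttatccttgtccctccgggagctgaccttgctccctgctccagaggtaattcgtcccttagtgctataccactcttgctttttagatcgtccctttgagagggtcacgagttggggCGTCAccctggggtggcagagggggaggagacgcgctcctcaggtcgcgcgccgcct
The sequences are RefSeq's. Each Entpd1 stretch held 1 half-site, beginning 135 and 183 bases before its start, and the P2rx4 stretch held 2, at 178 and 57 bases before its start. The stretches of Nt5e, Ada, Adora2b, P2rx7, P2ry12 and P2ry14 held none, and Adora2a and P2ry6 had no stretch available. Promoter stretches were available for 8 members, 13 in all, and 3 of the 13 held the half-site on either strand, against 23.8% of the 15395 RefSeq stretches of the same length that belong to genes in the table and 17.7% of all 32817; 0 of the 13 held the full TGACGTCA, against 2.3% for genes in the table. The share among the members is near that background. A match is a match of letters only, and the values per gene do not tell the 2 Entpd1 starts apart.

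Entpd1 was at 79.3, 78.0, 92.36 and 93.21 FPKM in si-nc replicates 1 to 4 and at 40.81, 39.48, 41.86 and 39.91 FPKM in the si-Suclg2 replicates. Every si-Suclg2 sample lay below every si-nc sample, and the si-Suclg2 samples were close to each other while the si-nc samples split by number. The means were 85.7 ± 8.19 and 40.5 ± 1.05 FPKM (SD, n = 4 each), a log2 change of -1.06 ± 0.065 (SE; limma adjusted p = 6.92e-06). The fall ranked 43 among the log2 changes of the 10176 genes. It was -0.95 within numbers 1 and 2 and -1.16 within numbers 3 and 4. In bulk RNA, fewer cells that express a gene and less RNA per cell cannot be told apart. Of the 4 dendritic cell markers tested, Itgax and Clec10a fell in the same samples (log2 change -0.64 and -1.32) and the other two did not pass. Ccr7 was at 4.67 and 4.09 FPKM, and Batf3 was higher with si-Suclg2, at 1.21 and 2.06 FPKM (limma adjusted p = 0.0675, and 0.00712 with the replicate block). The fit with that block, a term for the replicate number, passed 40.5% of all genes tested. The summed dendritic cell list, most of it Itgax and Clec10a, was 35.6 to 44.6 FPKM with si-nc and 22.5 to 24.8 FPKM with si-Suclg2. Of the macrophage list 3 genes rose, namely Adgre1 (333 to 597 FPKM), Itgam (97.6 to 197 FPKM) and Fcgr1 (354 to 517 FPKM). The genes Lyz2 (10384 to 7455 FPKM), Csf1r (490 to 370 FPKM) and Cd68 (2098 to 1789 FPKM) fell, and 6 did not pass. The list's sum, to which Lyz2 gives the most, was 19317 to 23661 FPKM with si-nc and 16708 to 20058 FPKM with si-Suclg2. Without the block, 26.9% of all genes tested passed. The dendritic cell and macrophage lists each had a larger share passing, but they are too short to read a change in cell types from. The part of these markers in the Entpd1 result was not tested.

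Nt5e (gene ID 23959; chromosome 9, 88327197 to 88372092), the enzyme that completes the route to adenosine, was at 0.01 to 0.08 FPKM with si-nc and 0.01 to 0.06 FPKM with si-Suclg2. It was below the 1 FPKM filter in every sample, and the groups overlapped (two-sided exact permutation p = 0.743 over 70 assignments). Stromal cells are a known site of Nt5e expression. The spleen stroma markers, of which 10 of 11 had a row, summed to 25.7 to 44.9 FPKM with si-nc and 34.5 to 42.2 FPKM with si-Suclg2, and Pdgfra, Pdgfrb, Lum and Thy1 were under 1 FPKM throughout. Most of that sum was Pdpn, which rose from 20.6 to 27.1 FPKM (limma adjusted p = 0.03). The other 4 stroma markers tested had lower means with si-Suclg2 and did not pass: Col1a1 (5.86 and 3.21 FPKM), Col1a2 (1.88 and 1.11 FPKM), Col3a1 (2.04 and 1.17 FPKM) and Dcn (5.48 and 4.68 FPKM). With the replicate block the 3 collagen genes passed (limma adjusted p = 0.00694, 0.0353 and 0.0163). That fit passed 40.5% of all genes tested, against 26.9% without the block. Ada (gene ID 11486; chromosome 2, 163726584 to 163750239) was at 1.99, 1.66, 1.51 and 1.31 FPKM with si-nc and at 2.09, 1.94, 2.16 and 1.68 FPKM with si-Suclg2. Its groups overlapped, and it did not pass (log2 change 0.18, 95% interval -0.02 to 0.39, limma adjusted p = 0.177).

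**Figure D1:**
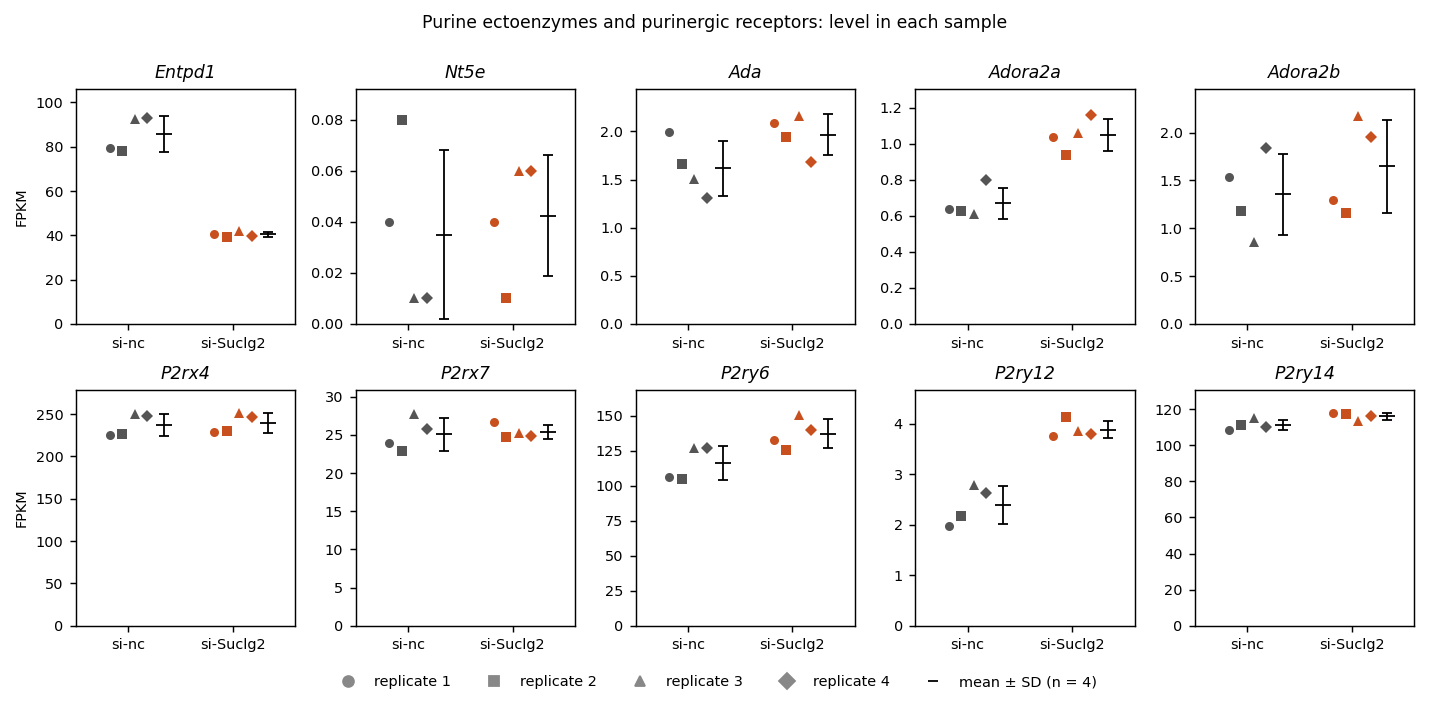
Level of each of the 10 genes in FPKM (vertical axes from 0, each with its own scale) in the 4 si-nc samples (grey) and 4 si-Suclg2 samples (orange); marker shapes give the replicate number and the bar the mean ± SD. Entpd1 lies at 78.0 to 93.21 FPKM with si-nc and 39.48 to 41.86 FPKM with si-Suclg2, P2ry12 and Adora2a separate in the opposite direction, and the other 7 genes overlap.

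The Gs-coupled adenosine receptors were both low, and Adora2a rose. Adora2a (gene ID 11540; chromosome 10, 75316877 to 75334784), the high-affinity receptor through which adenosine restrains many leukocytes, was at 0.64, 0.63, 0.61 and 0.80 FPKM with si-nc and 1.04, 0.94, 1.06 and 1.16 FPKM with si-Suclg2. All si-Suclg2 samples were higher than any si-nc sample. The ratio of means was 1.57 (log2 change 0.30 ± 0.072 SE, limma adjusted p = 0.0141). Adora2a reached the filter only through its si-Suclg2 mean of 1.05 FPKM; tested with no filter its adjusted p was 0.00591 in limma, and with a pseudocount of 0.1 in place of 1 the log2 change was 0.58. With numbers 3 and 4 alone its log2 change was 0.31 (limma adjusted p = 0.0692), and with numbers 1 and 2 alone it was under the filter. Adora2b (gene ID 11541; chromosome 11, 62248984 to 62266453), the low-affinity receptor, was at 1.53, 1.18, 0.86 and 1.84 FPKM with si-nc and 1.3, 1.16, 2.17 and 1.95 FPKM with si-Suclg2. The spread within each group was wide and the groups overlapped (log2 change 0.17, 95% interval -0.19 to 0.53, limma adjusted p = 0.489). Within a sample, log2(FPKM + 1) of Adora2b minus that of Adora2a was 0.48 ± 0.21 with si-nc and 0.35 ± 0.23 with si-Suclg2 (SD, n = 4 each; two-sided exact permutation p = 0.314, 0.471 after adjustment over the 3 such differences computed). At these low levels the pseudocount makes that difference smaller than the log2 ratio of the FPKM values, and with a pseudocount of 0.1 the change between groups was -0.312 in place of -0.13.

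Both ATP-gated channels were well expressed, and neither passed. P2rx4 (gene ID 18438; chromosome 5, 122707544 to 122729738), a channel found on the plasma membrane and on lysosomes, was at 225.25, 226.56, 249.95 and 247.36 FPKM with si-nc and 229.29, 229.80, 251.48 and 246.79 FPKM with si-Suclg2. Replicates 3 and 4 were the higher samples in both groups, and the groups coincided (log2 change 0.01, 95% interval -0.11 to 0.13, limma adjusted p = 0.887). P2rx7 (gene ID 18439; chromosome 5, 122643911 to 122691432), its neighbour on the chromosome and the channel that drives inflammasome activation at high ATP, was at 23.88, 22.91, 27.80 and 25.77 FPKM with si-nc and 26.67, 24.78, 25.29 and 24.80 FPKM with si-Suclg2. Here too the groups overlapped (log2 change 0.02, 95% interval -0.12 to 0.16, limma adjusted p = 0.853). Within a sample, log2(FPKM + 1) of P2rx7 minus that of P2rx4 was -3.19 in both groups (SD 0.054 and 0.099, n = 4 each; two-sided exact permutation p = 0.914, adjusted 0.914).

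Of the 3 G protein-coupled P2Y members, the ADP receptor P2ry12 rose. P2ry12 (gene ID 70839; chromosome 3, 59216272 to 59262871, minus strand), known as the platelet ADP receptor and as a microglial marker, was at 1.97, 2.17, 2.78 and 2.63 FPKM with si-nc and 3.76, 4.13, 3.85 and 3.79 FPKM with si-Suclg2. The groups did not overlap, and the ratio of means was 1.63 (log2 change 0.53 ± 0.084 SE, limma adjusted p = 0.00152). The change was 0.69 within numbers 1 and 2 and 0.38 within numbers 3 and 4. Of 5 platelet markers 4 had a row; Itga2b, Ppbp and Gp1bb were under 1 FPKM in every sample and Pf4, at 23.38 to 37.62 FPKM, did not pass. P2ry12 and P2ry14 lie inside Med12l on the opposite strand, and strand use in counting is not given in the sources used here; Med12l itself was at 0.295 ± 0.048 and 0.372 ± 0.033 FPKM (SD, n = 4 each).

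P2ry6 (gene ID 233571; chromosome 7, 100937630 to 100974649), the UDP receptor linked to phagocytosis and chemokine release, was at 106.20, 105.09, 127.02 and 126.98 FPKM with si-nc and 132.89, 125.90, 150.69 and 140.15 FPKM with si-Suclg2. In each group replicates 3 and 4 were the higher samples, and within every replicate number the si-Suclg2 sample was the higher. The log2 change of 0.24 ± 0.081 (SE) just missed the threshold (limma adjusted p = 0.0533), and with the replicate number as a block it passed (adjusted p = 0.00142). The block fit passed 40.5% of all genes tested. Across genes, si-nc and si-Suclg2 samples of different numbers within 1 and 2 or within 3 and 4 deviated together as much as same-numbered ones did. The P2ry6 change was 0.29 within numbers 1 and 2 and 0.19 within numbers 3 and 4 (limma adjusted p = 0.000992 and 0.02). These fits of 2 against 2 samples measure spread only between samples that resembled each other. They passed 3181 and 3311 genes, against 2740 with all 8 samples, so their p-values do not add to the main test. P2ry14 (gene ID 140795; chromosome 3, 59113855 to 59153618), the receptor for UDP-glucose, was at 108.53, 111.48, 114.98 and 109.98 FPKM with si-nc and 117.68, 117.38, 113.25 and 116.19 FPKM with si-Suclg2. These ranges overlapped through si-nc replicate 3 and si-Suclg2 replicate 3 (log2 change 0.06, 95% interval -0.02 to 0.14, limma adjusted p = 0.249). The same difference of P2ry6 minus P2ry14 was 0.06 ± 0.14 and 0.24 ± 0.13 (SD, n = 4 each; two-sided exact permutation p = 0.143, adjusted 0.429).

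Receptor levels spanned a wide range. Of the 18 adenosine and P2 receptor genes listed, 15 had a row and 9 were tested. In order of si-nc mean FPKM they were P2rx4 (237), P2ry6 (116), P2ry14 (111), P2rx7 (25.1), P2ry13 (13), P2ry2 (4.76), P2ry12 (2.39) and Adora2b (1.35). Adora3 followed at 0.718 FPKM and Adora2a at 0.670 FPKM, and P2rx6, P2rx5, P2ry4, P2rx1 and P2rx3 lay below. The si-nc ranges of P2ry6 and P2ry14 overlapped, as did those of Adora2b, Adora3 and Adora2a with their neighbours. Beside the tested genes, 6 receptors outside the 10 members were between 0 and 1.26 FPKM in every sample.

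**Figure D2:**
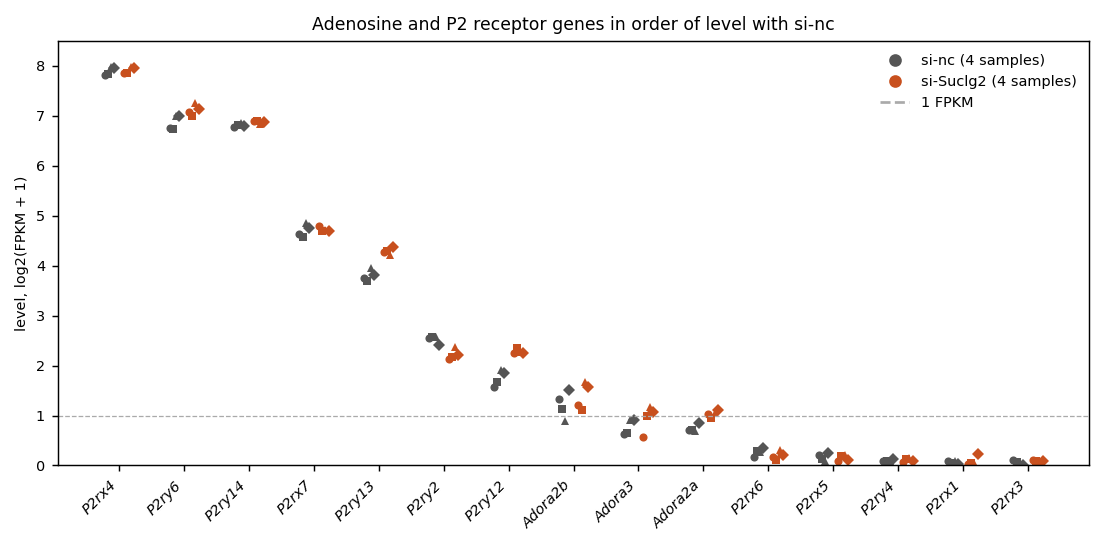
Level of the 15 adenosine and P2 receptor genes with a row, as log2(FPKM + 1), in order of their si-nc mean; each point is 1 of 4 si-nc (grey) or 4 si-Suclg2 (orange) samples and the dashed line marks 1 FPKM. P2rx4 leads at 225.25 to 249.95 FPKM with si-nc, and the groups of P2ry13, P2ry12, Adora2a and P2ry2 do not overlap, P2ry2 being the one that is lower with si-Suclg2.

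Counted together, 9 of the 10 members were tested, 2 rose, 1 fell and 6 did not pass, against 26.9% of all genes tested that passed (1221 higher and 1519 lower with si-Suclg2). Groups did not overlap for Entpd1, Adora2a and P2ry12, 3 of the 9, against 29.6% of all genes tested. Adora2a was among the 9 only through its si-Suclg2 mean of 1.05 FPKM, so its place in both counts is partly set by the filter. Both shares are near the background, so the count is no result about these genes as a group. Their median log2 change was 0.17, that of all genes tested -0.03. In the authors' deposited table, 5 members had a DEGseq q-value under 0.05, among 47.6% of all genes, namely Entpd1, Adora2a, P2ry12, P2ry6 and P2ry14; the authors' deposited table gives P2ry14 a log2 fold change of 0.07 with q = 2.18e-05.

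Other genes in or around the purine pathway were read from 7 lists of 74 genes, of which 68 had a row and 50 were tested. Of these, 10 rose, 9 fell and 31 did not pass, with a median log2 change of 0.03. The share passing was 38.0%, against 26.9% of all genes tested. Because the lists were chosen with earlier results of these data known, that difference is no result about the pathway. Among 7 other nucleotidases tested, 1 rose and 2 fell, which is 42.9% of a short list against 26.9% of all genes tested. Cd38 (chromosome 5, 43868553 to 43912375), an ectoenzyme that consumes NAD and opens a route to AMP separate from CD39, went from 5.05, 4.49, 4.16 and 5.0 FPKM to 13.04, 14.28, 17.51 and 20.35 FPKM. Every si-Suclg2 sample was far above the si-nc samples, at 3.49 times their mean (log2 change 1.59 ± 0.12 SE, limma adjusted p = 2.76e-05). Cd38 and Slc29a1 both overlap annotated antisense transcripts. Enpp1, which splits ATP into AMP and pyrophosphate, fell from 1.90 ± 0.303 to 1.38 ± 0.188 FPKM (limma adjusted p = 0.0461). Entpd5, an endoplasmic reticulum nucleotidase, fell from 1.66 ± 0.167 to 1.22 ± 0.122 FPKM (SD, n = 4 each; limma adjusted p = 0.0276). Each of these last calls was lost on leaving out any one of 6 samples, the highest adjusted p being 0.109 for Enpp1 and 0.0751 for Entpd5.

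The nucleoside transporters moved in both directions, with 1 of 4 higher and 1 lower. Slc29a1 (chromosome 17, 45585200 to 45599606), the equilibrative transporter ENT1 that carries adenosine across the plasma membrane, was at 47.01, 49.74, 50.17 and 54.35 FPKM with si-nc and 32.08, 31.54, 31.92 and 32.51 FPKM with si-Suclg2. Its groups were well apart (log2 change -0.63 ± 0.048 SE, limma adjusted p = 2.18e-05). Slc28a2 (chromosome 2, 122426477 to 122461137), the sodium-driven purine nucleoside carrier CNT2, was at 24.77, 25.27, 22.40 and 17.68 FPKM with si-nc and 49.57, 48.92, 42.60 and 46.75 FPKM with si-Suclg2. This rise was 2.08-fold (log2 change 1.04 ± 0.10 SE, limma adjusted p = 0.000117). The value of Slc28a2 is uncertain, because 35.4% of its 50-base words also occur in transcripts of Gm14085.

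Of 11 genes for nucleotide salvage and breakdown inside the cell, 3 rose and 0 fell, and this 27.3% is near the 26.9% of all genes tested that passed. Not all of the 11, Nt5c3 and Dck among them, are particular to purines. Pnp, which cleaves inosine after Ada has made it, rose from 188 ± 2.58 to 272 ± 22.5 FPKM (limma adjusted p = 0.000226), Nt5c3, a cytosolic nucleotidase, from 96.1 ± 4.52 to 115 ± 2.35 FPKM (0.00205), and the deoxynucleoside kinase gene Dck from 74.6 ± 2.02 to 85.7 ± 1.45 FPKM (0.00371; SD, n = 4 each). Pnp shares 438 of its 3982 words of 50 bases with its near copy Pnp2, and 16.8% with Gm49342, so reads may be split among them; Pnp2 was itself at 19.72 and 36.38 FPKM. The adenosine kinase gene Adk, which removes adenosine by phosphorylation, did not pass (log2 change -0.11, 95% interval -0.27 to 0.05).

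On the ATP release list, 2 of 5 fell and 0 rose. This 40.0% stands beside 26.9% of all genes tested, and 5 genes are too few to read a direction from. Ank, a membrane protein linked to the export of ATP and pyrophosphate, fell from 4.46 ± 0.430 to 2.09 ± 0.234 FPKM (SD, n = 4 each; log2 change -0.82 ± 0.081 SE, limma adjusted p = 0.000107). Panx1, the pannexin channel gene, fell from 5.76 ± 0.327 to 4.85 ± 0.344 FPKM (limma adjusted p = 0.0357), a call lost without any single one of 6 samples, with an adjusted p of up to 0.092. The 2 other P2 receptor genes tested both passed and moved apart. Against 26.9% of all genes tested, 2 genes are too few to read a result from. P2ry13, an ADP receptor gene that lies between P2ry14 and P2ry12 (chromosome 3, 59207892 to 59210882, minus strand) and also within Med12l, went from 12.54, 11.91, 14.47 and 13.14 FPKM to 18.27, 18.58, 17.64 and 19.64 FPKM. Like its neighbour P2ry12 it was higher in every si-Suclg2 sample (log2 change 0.48 ± 0.063 SE, limma adjusted p = 0.000517). P2ry2, a receptor for ATP and UTP, fell from 4.76 ± 0.307 to 3.69 ± 0.352 FPKM (SD, n = 4 each; limma adjusted p = 0.0121), though with numbers 3 and 4 alone its adjusted p was 0.149.

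**Figure D3:**
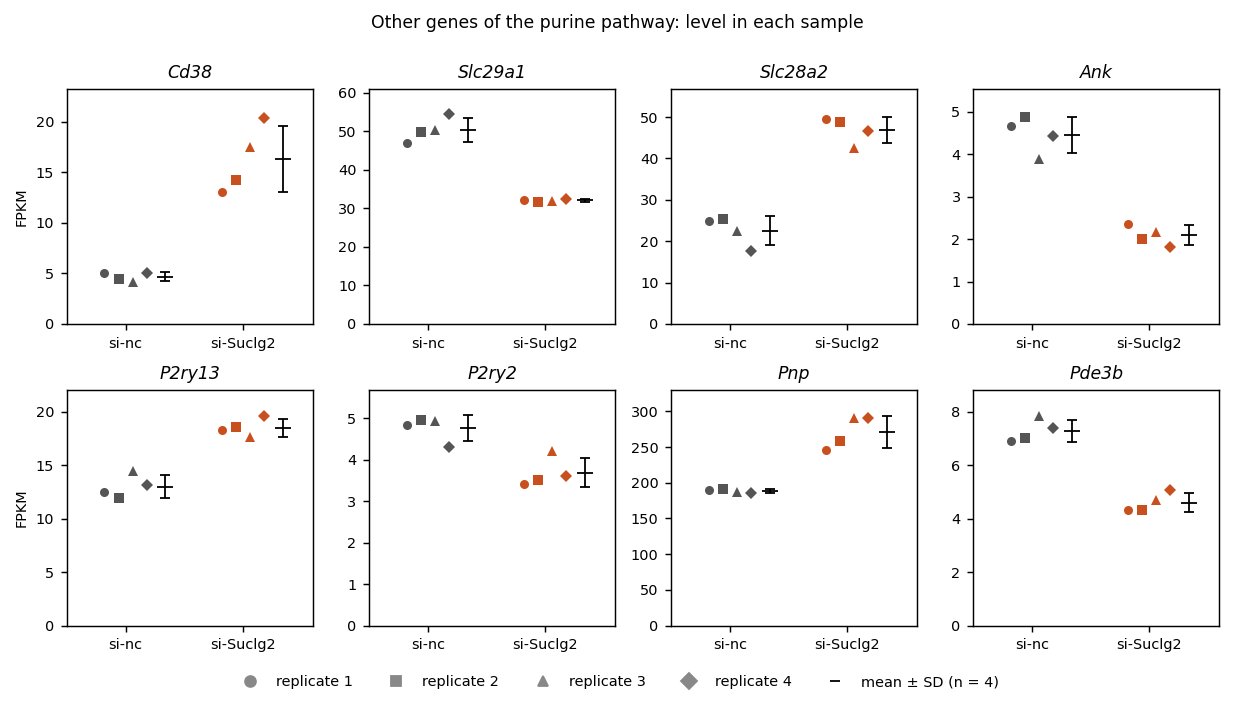
Level in FPKM (vertical axes from 0) of 8 other purine pathway genes that passed the test, in the 4 si-nc (grey) and 4 si-Suclg2 (orange) samples, with the mean ± SD; marker shapes give the replicate number. Cd38 lies at 4.16 to 5.05 FPKM with si-nc and 13.04 to 20.35 FPKM with si-Suclg2, Slc28a2, P2ry13 and Pnp are also higher, and Slc29a1, Ank, P2ry2 and Pde3b are lower.

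Downstream of the receptors, 1 of 14 cyclic AMP signalling genes rose and 3 fell, and this 28.6% too is near the 26.9% of all genes tested. Pde3b, a phosphodiesterase that degrades cyclic AMP, fell from 7.29 ± 0.418 to 4.61 ± 0.359 FPKM (limma adjusted p = 0.000251) and the adenylyl cyclase gene Adcy9 from 3.49 ± 0.183 to 2.55 ± 0.112 FPKM (0.00249; SD, n = 4 each). Gnas, the Gs alpha subunit gene, fell from 408 ± 25.5 to 351 ± 13.4 FPKM (limma adjusted p = 0.017, and 0.0505 without si-Suclg2 replicate 4); 10.9% of its 50-base words lie in the transcripts of Gm20721 on the opposite strand. Prkar2b, a regulatory subunit of protein kinase A, rose from 2.1 ± 0.305 to 2.83 ± 0.185 FPKM (limma adjusted p = 0.0205), which was lost on leaving out si-nc replicate 1 or either of si-Suclg2 replicates 2 and 4, the adjusted p then reaching 0.0547. On the list of genes that act after P2rx7 in the inflammasome, 3 of 7 rose and 0 fell. That is 42.9% passing, against 26.9% of all genes tested, and 7 genes are too few to read a direction from. Il1b went from 15.52, 17.36, 20.96 and 25.94 FPKM to 33.30, 33.95, 54.65 and 70.76 FPKM (log2 change 1.18 ± 0.24 SE, limma adjusted p = 0.00625). Casp1 rose from 66.9 ± 8.09 to 108 ± 7.36 FPKM (limma adjusted p = 0.000425) and the pore protein gene Gsdmd from 86.1 ± 3.61 to 103 ± 5.93 FPKM (0.00612; SD, n = 4 each). With P2rx7 itself level between the groups, the sensor gene Nlrp3 did not pass (limma adjusted p = 0.133), nor did the adaptor gene Pycard (0.0547, and 0.00448 with the replicate block). With that block 40.5% of all genes tested passed.

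**Figure D4:**
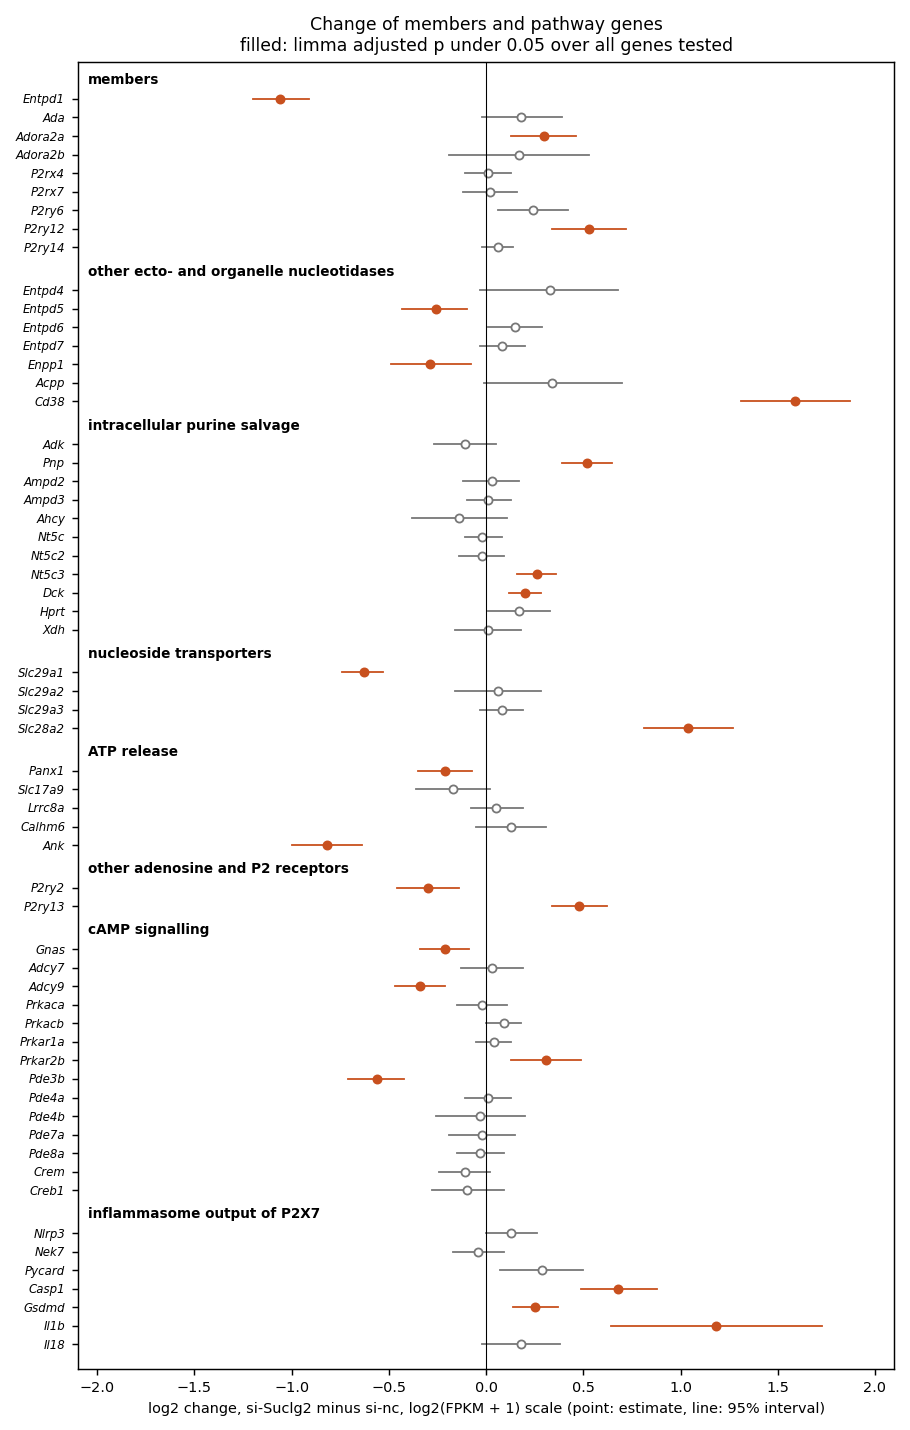
Log2 change (si-Suclg2 minus si-nc, log2(FPKM + 1) scale; point with its 95% interval) of the 9 members and 50 pathway genes tested, by list; filled orange points passed limma at an adjusted p of 0.05 over all genes and open grey points did not. Entpd1 at -1.06 is the lowest point and Cd38 at 1.59 the highest.

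For each member that passed, the 2 genes with the closest profile were found by the root mean square difference of centred log2(FPKM + 1) over the 8 samples. Entpd1 was closest to Hpse, the heparanase gene (103 and 50 FPKM; difference 0.077), and to Cd300a (147 and 74.5 FPKM; 0.097). P2ry12 (2.39 and 3.88 FPKM) was closest to Clec4a3 (268 and 372 FPKM, difference 0.06) and Notch1 (5.04 and 7.64 FPKM, 0.068). Adora2a (0.67 and 1.05 FPKM) was closest to Hax1 (54.6 and 68.6 FPKM, 0.022) and Arf1 (194 and 241 FPKM, 0.04). The pseudocount of 1 shrinks changes at the low levels of Adora2a and P2ry12, so a small difference from them is not an equal fold change. These are the smallest of many differences and carry no test.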

How the data were processed

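RNA from 8 samples was sequenced on an Illumina HiSeq instrument, per the labels' protocols. The authors deposited 1 table of 15465 genes with 8 value columns and, from DEGseq, log2 fold changes with their p-values and q-values, per the file headers. The builds GRCm38.p4 and mm10 come from the submitters' processing notes. Names of the aligner and counter were not given in the sources used here. Deposited values were taken as FPKM made by the authors, because the number of reads behind 1 unit, worked out from each deposited p-value, followed transcript length in 4018 genes (Spearman rho = 0.85, and 0.02 once divided by length; a description across genes). TPM would look the same. No counting interval is given, because depth is unknown. Spreadsheet day numbers in 22 symbols were restored through gene IDs.

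The test was limma 3.58.1 (R 4.3.3) fitted to log2(FPKM + 1) with group as the only term and a trend in the prior variance. The method was tested on simulated data whose samples were drawn independently. The real samples deviated together, so the simulation cannot tell how the test behaves under such likeness. Single values and differences of log2(FPKM + 1) between members were tested by exact permutation. Coordinates are from GENCODE M21 and promoters from RefSeq (GRCm38.p6). Words of 50 bases shared with other genes' transcripts were searched in GENCODE M21; members shared under 5% with any other gene. Named genes are all members, the list genes past the threshold, at most 4 per list, with the 2 closest profiles; list genes named without passing were chosen after their values were seen. The members and lists were chosen with earlier results of these data known.

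Same-numbered samples of the 2 groups deviated together (r = 0.40 to 0.55 across genes), so the numbers were treated as pairs in a fit with a replicate block, although the labels do not tie a number to a shared culture. Numbers 1 with 2 and 3 with 4 across groups correlated as much (r = 0.44 to 0.56), and the best match of 3 of 8 samples had their own number. Alternatives were other pseudocounts, filters and scalings, single samples left out, numbers 1 and 2 or 3 and 4 alone, and a stroma marker score.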

Additional observations from a re-analysis of the deposited data

Results flagged for a closer look

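Adora2a in si-nc replicate 4 was at 0.80 FPKM, apart from the other si-nc samples at 0.61 to 0.64 FPKM; the gap was 0.842 of the group's range, above Dixon's critical value for 4 samples at the 95% level. It was the only one of 60 groups of 4 samples examined to stand out this way, and chance alone flags about 1 in 20. All si-Suclg2 samples were still higher, at 0.94 FPKM or more, and the Adora2a change was 0.33 without that sample (limma adjusted p = 0.0155).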

How the results depend on the processing

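Entpd1, P2ry12 and Suclg2 passed with the same sign under every alternative that could test them, with a log2 change of Entpd1 from -1.10 to -1.02 over the single samples left out; the filter of 5 FPKM left out P2ry12 and Suclg2. The count of members passing was 1 of 5 tested with that filter, since fewer genes were tested, and 3 to 4 otherwise. Genes passing numbered 4126 with the replicate block against 2740, and 2127 to 2624 with single samples left out; pathway genes passing numbered 14 to 19 with single samples left out and 25 with the replicate block. The share of higher genes among those passing was 44.6%, against 38.2% with a common column sum, 48.9% with quantile normalization, 49.3% with the filter of 5 FPKM and 50.8% with trimmed-mean scaling, which turned the majority. P2ry6 passed with trimmed-mean scaling (0.0436), a common column sum (0.0427) and without si-nc replicate 3, si-nc replicate 4 or si-Suclg2 replicate 2 (limma adjusted p of 0.0399 to 0.0444), and Ada with quantile normalization (0.0463). Among the tested members that did not pass, P2rx4, P2rx7, Adora2b and P2ry14 changed sign near 0, while Ada and P2ry6 stayed higher throughout. The cause was not tested. P2rx4 was at -0.06 with quantile normalization, -0.01 with a common column sum, -0.03 with the stroma score and -0.01 to 0.04 with single samples left out. P2rx7 was at -0.007 with a common column sum, -0.01 with the stroma score, -0.09 with numbers 3 and 4 alone and -0.02 to 0.07 with single samples left out. Adora2b was at -0.08 with numbers 1 and 2 alone and P2ry14 at -0.01 with quantile normalization. With numbers 1 and 2 alone and 3 and 4 alone, the change in the difference of log2(FPKM + 1) was -0.358 and 0.103 for Adora2b minus Adora2a and 0.108 and -0.095 for P2rx7 minus P2rx4, against -0.037 to 0.032 for the latter with single samples left out; these designs are too small to pass. The Nt5e difference ran from -0.001 to 0.031 with single samples left out. With the replicate block P2ry6 was the one member whose call changed. Unknown depth limits Nt5e, Adora2a and the other genes near or under 1 FPKM.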
